A study of Ovis aries with 2 samples.

Results

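Macrophages of the native sheep carotid artery were taken as 799 of the 6810 barcodes of 1 artery library that passed a depth and a mitochondrial limit (11.7%, exact 95% interval 11.0 to 12.5). A barcode tags the RNA captured in 1 droplet, usually that of 1 cell, and a UMI (unique molecular identifier) counts 1 captured RNA molecule. A barcode entered the analysis with at least 1000 UMIs and at most 20% of them from the 13 mitochondrial protein genes. It was assigned to the macrophages when it held at least 3 UMIs summed over C1QA, C1QB, AIF1, CSF1R, CTSS and CD163. That sum also had to be at least 2 times each of an endothelial sum (PECAM1, CDH5, VWF, CLDN5, ESAM, TIE1), a smooth muscle sum (ACTA2, MYH11, CNN1, TPM2) and a T cell sum (CD3D, CD3E, CD3G, CD2, LCK). The remaining 6011 artery barcodes within the limits served as the comparison. The barcodes were thus chosen by their counts of these genes in the same library. Because the counts that chose the cells also give their levels, all values below are descriptions without a test.

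The study placed cell-free vascular grafts in sheep and profiled single cells of a graft and of a native carotid artery by 10x Genomics 3′ sequencing, with 1 library each. Both vessels were taken from animals aged 1 to 2 years, 12 weeks after implantation, and about 10000 cells were aimed for per capture. The native sample is titled as aorta, whereas its source and tissue labels give carotid artery, and the number of animals is not stated in the labels. Cells were released by enzymes filled into the clamped vessel and were treated to lyse red cells, and the labels do not give how deep into the wall the digestion reached.

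Arterial macrophages live in the vessel wall, mostly in the adventitia, where they clear debris, present antigen and respond to injury. In many tissues, a perivascular population that carries the hyaluronan receptor LYVE1, the coagulation factor XIII A chain F13A1, and the scavenger receptors CD163 and MRC1 is described as long-lived. Another population with abundant MHC class II and the monocyte chemokine receptor CCR2 is described as replenished from blood monocytes. The label of the sheep MHC class II alpha chain in the annotation used is Ovar-DRA.

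The macrophage barcodes held 8151295 UMIs in all, with a median of 9165 (1000 to 53350), 2994 genes and 1.86% mitochondrial UMIs. The other native barcodes held 31657011 UMIs with a median of 3370. Of the 11371 native barcodes, 4460 had too few UMIs and 101 failed the mitochondrial limit alone. The artery and graft libraries shared 7 barcode sequences, of which 0 belonged to the native macrophages. Levels are given as CPM, the usual scaling of a gene's UMIs to a fixed total for each group. Intervals cover counting error at 95% only, since 1 library per tissue leaves no replicate check.

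The genes of the rule separated the groups as the rule requires. C1QA, a chain of the complement recognition protein C1q, stood at 4607 CPM in the macrophages and 51.1 CPM in the other native barcodes. C1QB stood at 1578 against 20.4, the lysosomal protease CTSS at 1908 against 67.3, and AIF1 at 698 against 8.75. The receptor of the macrophage growth factor CSF1, CSF1R, stood at 442 against 8.12, and the haemoglobin scavenger receptor CD163 at 159 against 1.67. A macrophage barcode held a median of 18 C1QA UMIs, with a 10th to 90th percentile range of 0 to 128, and 98 of the 799 held 0. CD163 was found in fewer of them, with 472 barcodes at 0.

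Most macrophage markers outside the rule were also higher in these barcodes. Of 15 further macrophage markers, 11 were found in the annotation, and 9 of the 10 with enough counts were at least 2-fold higher in the macrophages. MARCO was at 0 in both groups. MPEG1, a pore-forming protein of phagocytes, stood at 501 CPM against 6.29. After each barcode was thinned at random to 1000 UMIs, C1QA was found in 80.9% of macrophage barcodes, 7.24% of endothelial and 7.92% of fibroblast barcodes. The unthinned shares were 87.7%, 16.8% and 19.2% at median depths of 9165, 3601 and 7242 UMIs. C1QA takes part in the choice of all 3 classes, which raises its share in the macrophages and limits it in the other 2. MPEG1 was found in 32.0% of thinned macrophage barcodes, 1.22% of endothelial and 0.84% of fibroblast barcodes (unthinned 69.6%, 2.07% and 2.64%).

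Part of the barcodes carried other cells' markers. The endothelial list summed to 272 CPM in the macrophages and 2237 CPM in the rest. All 7 fibroblast markers were found in the macrophages, at a sum of 2419 CPM against 8205, and 292 of the 799 barcodes (36.5%) held at least 3 UMIs of the 7. The rule sets no limit on fibroblast genes. On the shorter list that defines the fibroblast class (DCN, LUM, PI16, MFAP5 and SFRP2), 168 held at least 3 UMIs and 99 had a macrophage sum under 2 times this fibroblast sum. The T or NK list summed to 155 against 394, the B or plasma list to 31.7 against 47.0 and the mast cell list to 5.64 against 72.3. The T cell gene CD2, which the rule counts against a barcode, was higher in the macrophages at 77.0 CPM than in the rest at 32.0, and stood at 303 CPM in T cells. PECAM1, also counted against a barcode, stood at 218 CPM, and 111 barcodes were left out only because of PECAM1 or CD2. The part of these other cells' RNA in the values below was not tested.

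Near the thresholds, the 89 barcodes with a macrophage sum of 3 or 4 had a median of 1566 UMIs, with MPEG1 at 12.8 CPM and CD86 at 62.0. The 710 with a sum of at least 5 had MPEG1 at 530 CPM and CD86 at 928. Just outside, the 100 barcodes with a sum of 2 had MPEG1 at 2.87 and CD86 at 47.3. On the other limit, the 68 barcodes with a sum of 2 to under 3 times the highest other list had MPEG1 at 359 CPM, and the 106 left out at 1 to under 2 times had 136. The lowest macrophage sums thus held little RNA of other macrophage genes, while barcodes just outside the ratio limit held a good deal of it.

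Of 16590 genes with at least 10 UMIs, 1340 (8.08%) were at least 2-fold higher in the macrophages than in the other native barcodes and 1737 (10.5%) at least 2-fold lower, on CPM with 5 added. With 1 CPM added, 2785 were lower. The median log2 ratio of all genes was -0.06. Among the 12 highest genes outside the rule, the neutrophil-attracting chemokine CXCL8 stood at 3429 CPM against 52.5, a ratio of 65.3 (62.1 to 68.6). The T cell costimulator CD86 stood at 878 against 12.5, and the mannose receptor MRC1 at 415 against 3.85, a ratio of 108 (89.96 to 130). CFD, the protease that starts the alternative complement pathway, stood at 1035 against 18.8. The kinase inhibitor PKIB, the tight junction gene CLDN1 and the creatine kinase CKB followed at 662, 537 and 423 CPM, against 9.22, 9.10 and 7.08.

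**Figure D1:**
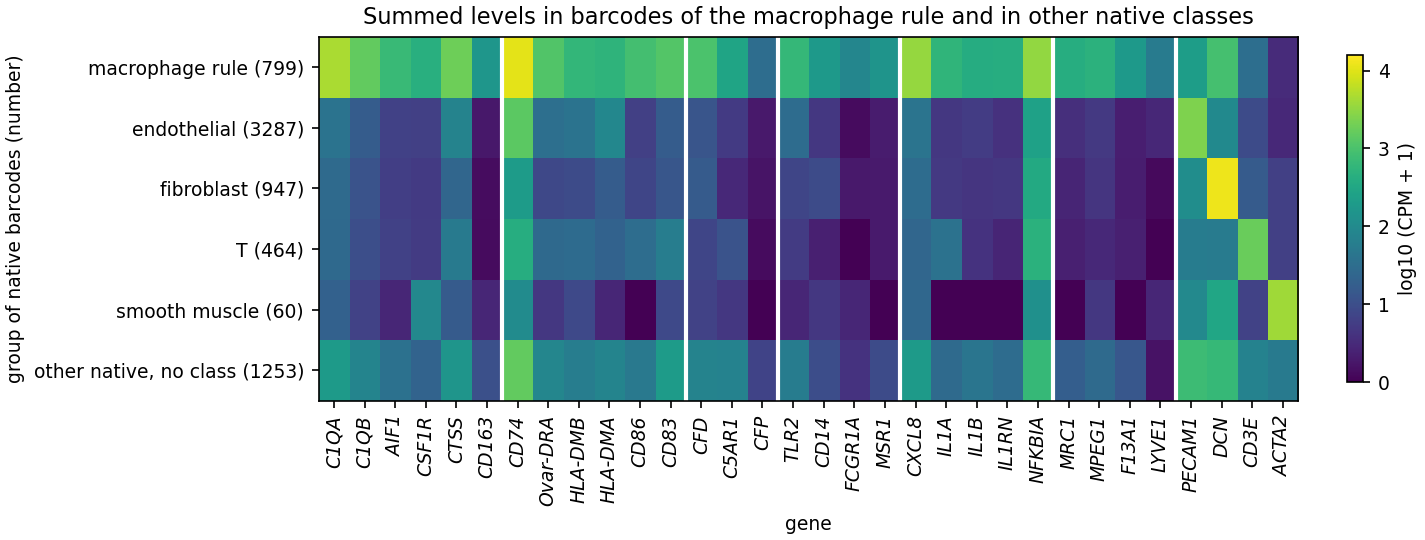
Summed level of 32 genes (columns) in the macrophage barcodes and 5 other classes of native barcodes (rows, with the number of barcodes), as log10 of CPM + 1. The macrophage row is the brightest for the genes from C1QA to LYVE1, while PECAM1, DCN, CD3E and ACTA2 are brightest in the endothelial, fibroblast, T and smooth muscle rows.

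All 12 measured genes of the MHC class II list were at least 2-fold higher in the macrophages. CTSS, which chose the barcodes, is one of them, and the other 11 had a median log2 ratio of 3.66. The invariant chain CD74, which guards the peptide groove of class II, stood at 10472 CPM against 993. Ovar-DRA stood at 1132 against 31.2, a ratio of 36.2 (33.9 to 38.7). The peptide loaders HLA-DMA and HLA-DMB stood at 540 and 595 CPM against 60.5 and 32.5, and the class II transactivator CIITA at 53.7, which was 5.97-fold higher. The activation marker CD83 stood at 1210 against 38.9. CD74 was not confined to macrophages, since endothelial barcodes held 1365 CPM. In thinned barcodes, Ovar-DRA was found in 55.4% of macrophages and 4.56% of endothelial barcodes (unthinned 78.5% and 13.8%). CD74 was found in 93.4% of thinned macrophages and 67.9% of endothelial barcodes (unthinned 97.2% and 92.4%). A macrophage barcode held a median of 6 Ovar-DRA UMIs (10th to 90th percentile 0 to 31) and 65 CD74 UMIs (3 to 290).

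Complement genes were split in direction. Of 11 measured genes, 6 were at least 2-fold higher in the macrophages and 5 lower, with a median log2 ratio of 2.46. Without C1QA and C1QB, which chose the barcodes, 4 of 9 were higher and 5 lower, and the median was -1.32. Beside C1QA, C1QB and CFD, the higher ones were the anaphylatoxin receptors C5AR1, at 283 CPM against 11.8, and C3AR1, at 28.1 against 1.01, and the stabiliser of the alternative pathway CFP, at 30.7 against 1.36. The lower ones were C1R and C1S, the proteases that bind C1q, at 139.9 and 63.4 CPM against 393 and 259, and C2, CFB and the membrane inhibitor CD59. In fibroblasts, C1R stood at 1008 CPM and C1S at 819.

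Receptors for microbial products and antibody were almost all higher. Of 15 measured Fc and pattern receptor genes, 13 were past 2-fold in the higher direction and 0 in the lower. Their median log2 ratio was 3.58. TLR2, which senses bacterial lipoproteins, stood at 633 CPM against 24.5, the endotoxin co-receptor CD14 at 189 against 5.12, and the scavenger receptor MSR1 at 146 against 1.83. The lectin CLEC6A stood at 157 against 1.67.

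Inflammatory cytokine genes were high in these barcodes. Of 15 measured, 11 were past 2-fold in the higher direction and 0 in the lower. Their median log2 ratio was 2.43. Beside CXCL8, the interleukins IL1A and IL1B stood at 549 and 403 CPM against 9.44 and 8.09, and the antagonist of their receptor, IL1RN, at 421 against 5.94. The NF-kappa-B inhibitor NFKBIA, itself induced by that pathway, stood at 3276 against 342. PTGS2, the inducible cyclooxygenase, was in the other direction at 187 CPM against 370, with the endothelial class at 433. CXCL8 was spread unevenly: the median barcode held 7 UMIs, 206 of the 799 held 0, and 333 was the highest count. In thinned barcodes, CXCL8 was found in 61.1% of macrophages, 4.78% of endothelial and 5.07% of fibroblast barcodes (unthinned 74.2%, 13.2% and 16.4%). Immediate early and heat shock genes, which enzymatic digestion at body temperature is known to induce, did not stand apart as a list: 3 of 18 were higher and 2 lower, with a median log2 ratio of 0.05. FOS stood at 5020 CPM in the macrophages and 4470 in the rest. The part of digestion in the cytokine levels was not tested.

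Of 14 measured cathepsin and cystatin genes, 7 were at least 2-fold higher and 0 lower (median log2 ratio 1.44), or 6 of 13 (median 0.91) without CTSS of the rule. The protease inhibitor CST3 stood at 8131 CPM against 2087 and the lysosomal protease CTSB at 818 against 75.6. Iron and haem genes gave 6 of 9 higher and 0 lower (median 1.37), or 5 of 8 (median 1.27) without CD163 of the rule, with the ferritin heavy chain FTH1 at 7133 against 2518 and the haem-degrading enzyme HMOX1 at 391 against 22.8. Lipid handling genes were mixed, with 6 of 16 higher and 2 lower (median 0.56). The fatty acid carrier FABP5 stood at 155 CPM against 19.6 and the tetraspanin CD9 at 70.8 against 458. Within the lipid handling list, SPP1 stood at 0.74 CPM, GPNMB at 4.05, the lipid receptor TREM2 at 6.38 and APOE at 9.69. These 4 were singled out after their values were seen, and TREM2 was still among the 6 higher genes and APOE among the 2 lower. NPC2 and LGALS3 of the same list stood at 236 and 209 CPM.

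The resident macrophage list, which names genes common in tissue macrophages, had 13 of 17 measured genes at least 2-fold higher and 2 lower (median 2.11). Without CD163 and CSF1R of the rule, 11 of 15 were higher and 2 lower (median 2.04). The lipid transfer protein PLTP stood at 488 CPM against 83.4, the endocytic adaptor DAB2 at 182 against 52.0, the selenium carrier SELENOP at 150.04 against 70.3 and the folate receptor FOLR2 at 75.9 against 4.96. GAS6, a ligand of the receptors AXL and MERTK, was lower at 41.6 against 358. The growth factor list gave 3 of 12 higher and 3 lower (median 0.25), and the matrix proteolysis list 7 of 14 higher and 3 lower (median 0.94). In the latter, the urokinase receptor PLAUR stood at 301 CPM against 5.97 and the metalloproteinase inhibitor TIMP3 at 203 against 999.

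Interferon-induced genes were not raised as groups. Of 12 measured interferon gamma induced genes, 2 were past 2-fold in the higher direction and 4 in the lower. Their median log2 ratio was -0.33. CXCL10, a chemokine for T cells, stood at 148 CPM in the macrophages, 170 in the other native barcodes and 272 in the endothelial class. Of 14 type I interferon genes, 1 was higher and 0 lower (median 0.09), and IFI6 stood at 611 CPM against 513.

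The 12 genes lowest in the macrophages stood at 363 (MMRN2) to 2618 CPM (CDH13) in the endothelial class, which holds 3287 of the 6011 comparison barcodes. They included the endothelial phosphatase PTPRB, at 13 CPM against 330 (25.4-fold lower, 20.9 to 31.0), the caveolar genes CAV1 and CAVIN2, at 16.6 and 16.2 against 315 and 326, the cadherin CDH13, at 83.8 against 1590, and the endothelial matrix protein MMRN2, at 9.69 against 217. HMCN1, ABLIM3, RYR2, KCNN3, PREX2, ST6GALNAC3 and KITLG completed the set, at 8.59 to 39.8 CPM in the macrophages.

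Clustering of the macrophage barcodes alone gave 9 sub-clusters, and 12 at the finer resolution tried. They are given by number, since several were led by genes of other cell types. Sub-clusters 2 and 3, with 223 and 134 barcodes, were deep, at medians of 14289 and 12500.5 UMIs. Sub-cluster 2 was led by GLDN, IL1B, IL1A, CLEC4D, OLR1 and PLEK, with IL1B at 791 CPM against 124 in all other macrophage barcodes and IL1A at 1056 against 186. Its CXCL8 level was 5760 CPM. GLDN was found in 16 of its 223 barcodes and IL1B in 171. Sub-cluster 3 was led by LPL, TBC1D30, CXHXorf21, GPR141, FHL3 and SCIN, with folds of only 2.29 to 3.66. The LPL signal lay in 12 of the 134 barcodes. C1QA was 4732 CPM in sub-cluster 2 and 6329 in sub-cluster 3.

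Sub-cluster 6, with 22 barcodes at a median of 11461.5 UMIs, held 337 of the 446 LYVE1 UMIs and 684 of the F13A1 UMIs, with 109 and 823 in the other macrophage barcodes. Of the 22, 21 met the limit of 2 LYVE1 and F13A1 UMIs that defines the bearing group of the split. LYVE1 stood there at 1306 CPM against 13.8 in all other macrophage barcodes and was found in 20 of the 22. F13A1 stood at 2650 against 104 and was found in all 22. CCL24, a chemokine for eosinophils, led the sub-cluster at 1128 CPM against 10.1, and the growth factor PDGFC stood at 949 against 13. The same barcodes held MRC1 at 2464 CPM, CD163 at 980, STAB1 at 1011, MAF at 1147, DAB2 at 1120, FOLR2 at 701 and CD14 at 1593. They held little class II: CD74 was 1728 CPM, with 45.1% of those UMIs from 1 barcode, and Ovar-DRA was 151, with 56.4% from 1 barcode. CST3 was 539 CPM, below every other sub-cluster, and C1QA was 7300. The B or plasma list summed to 267 CPM there. All 30 UMIs of PAX5, a B cell factor on that list, came from 1 barcode.

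Sub-cluster 4, with 21 barcodes, was the deepest at a median of 22948 UMIs and held little C1q, with C1QA at 208 CPM and C1QB at 58.8. It was led by PLAC8, BCL11A, DNAH7, OR10R2, LY6E and TAMALIN. FLT3, the receptor of a dendritic cell growth factor, stood at 154 CPM against 13.6 in all other macrophage barcodes, and the factor IRF8 at 333. FLT3 was singled out after its value was seen. The dendritic list summed to 414 CPM there and to between 28.3 and 167 elsewhere. The B or plasma list summed to 179 CPM in sub-cluster 4 and the monocyte list to 549. PLAC8 was found in 9 of its 21 barcodes and FLT3 in 17. CST3 was 16468 CPM and CD74 11840.1, while FOLR2 and the Fc receptor FCGR1A were at 0 UMIs. Sub-cluster 5, with 36 barcodes, was led by genes of cell division, with TOP2A at 1651 CPM against 7.05 and CENPF at 1145 against 9.93, and C1QA at 5820. The proliferation list as a whole had 5 of 10 genes at least 2-fold higher in the macrophages than in the rest, with a median log2 ratio of 1.00.

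Shallow barcodes filled sub-clusters 0 and 7. Sub-cluster 0, the largest with 227 barcodes, had a median of 1393 UMIs and was led by COL18A1, HMCN1, BMX, CDH13, MYCT1 and PALMD, with an endothelial list sum of 1289 CPM. PECAM1 stood there at 824 CPM and C1QA at 3795. Sub-cluster 7, with 58 barcodes at a median of 1559 UMIs, held CST3 at 19914 CPM, CD74 at 19705, AIF1 at 1566 and FTH1 at 15248, and was led by PLAC1 and FXYD6. Sub-cluster 1 held 52 barcodes led by COL1A1, COL1A2, DCN, TNFAIP6, COL3A1 and ANTXR1, with DCN at 9972 CPM, C1QA at 1210 and a fibroblast list sum of 26704 CPM. In 51 of those 52 barcodes, at least 3 UMIs of the shorter fibroblast list were found. Sub-cluster 8 held 26 barcodes led by SKAP1, XCL1, IL12RB2, KLRK1, CTSW and CD52, with CD3E at 323 CPM and C1QA at 3392. For sub-clusters 0, 1 and 8 the leading genes went against the macrophage label. Sub-cluster 4 is also not led by macrophage markers, with C1QA in 5 of its 21 barcodes, CD163 in 2 and FCGR1A in 0, and it stays in the counts that follow. Without sub-clusters 1 and 8, 721 barcodes remained, and 494 without sub-clusters 0, 1 and 8. Leaving out sub-cluster 4 as well left 473. No doublet caller was run, and whether those barcodes held 2 cells was not tested.

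**Figure D2:**
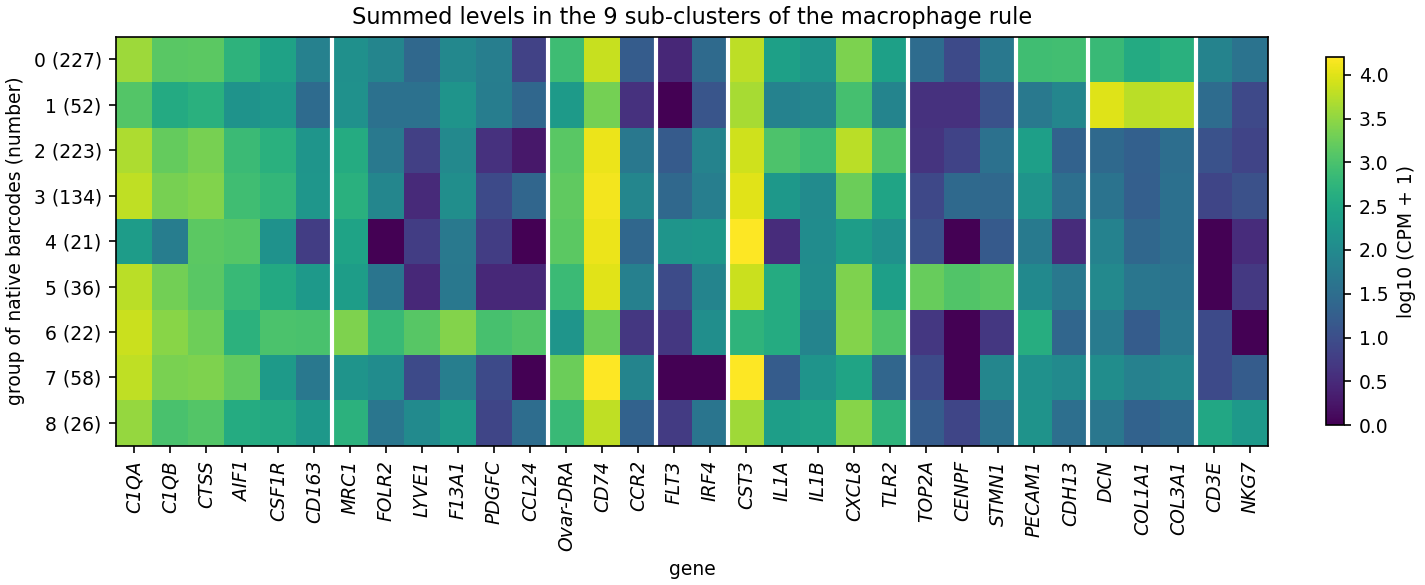
Summed level of 32 genes (columns) in the 9 sub-clusters of the macrophage barcodes (rows, with the number of barcodes), as log10 of CPM + 1. Row 6 is bright from MRC1 to CCL24 and dim for Ovar-DRA, row 4 is dim for C1QA and bright for FLT3, and rows 1 and 8 are bright for collagen genes and for CD3E.

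The barcodes were then split by LYVE1 and F13A1 against Ovar-DRA and CCR2. A LYVE1/F13A1-bearing barcode held at least 2 UMIs of LYVE1 and F13A1 together, and there were 165 (20.7%, 17.9 to 23.6). An Ovar-DRA/CCR2-rich barcode held 0 UMIs of LYVE1 and F13A1 and had at least the median share of Ovar-DRA and CCR2 UMIs, 9.28 per 10000, and there were 248 (31.0%, 27.8 to 34.4). The other 386 barcodes (48.3%) were in neither group, 108 of all macrophage barcodes having a single LYVE1 or F13A1 UMI. Of the 6011 other native barcodes, 10 (0.166%) met the bearing limit, among them 2 of 3287 endothelial barcodes, 0 of 464 T cells and 0 of 947 fibroblasts. These classes had to hold at least 2 times the macrophage sum, which itself limits macrophage RNA in them. A count of 0 allows a share of up to 0.792% in T cells and 0.389% in fibroblasts, by the exact 95% interval.

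F13A1, not LYVE1, placed most barcodes in the bearing group. F13A1 was found in 264 macrophage barcodes and LYVE1 in 45, and 36 held both, which is 80.0% of the LYVE1 barcodes and 13.6% of the F13A1 barcodes. In the bearing group, F13A1 had a median of 3 UMIs (10th to 90th percentile 2 to 20.2, highest 102), whereas LYVE1 was at 0 in 128 of the 165. In thinned barcodes, F13A1 was found in 10.4% of macrophages and 0.21% of endothelial barcodes, and LYVE1 in 2.88% and 0.09% (unthinned 33.0% and 0.67%, and 5.63% and 0.24%).

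Ovar-DRA, not CCR2, made up most of the UMIs that chose the rich group, at 9225 and 387 UMIs over all macrophage barcodes. The CCR2 level in CPM was close in the 2 groups. CCR2 stood at 50.6 CPM (42.1 to 60.4) in the bearing group and 54.4 (45.7 to 64.2) in the rich group, and was found in 34.5% and 31.0% of their barcodes. The 2 counting intervals overlapped. In the thinned barcodes CCR2 was found in 1.21% and 7.26%, the same order as the CPM and the reverse of the unthinned shares, and no order is read from them. Ovar-DRA stood at 1049 CPM in the bearing group against 1685 in the rich group, which was chosen for it, and 86 of the 165 bearing barcodes (52.1%, 44.2 to 59.9) reached the median share. Bearing barcodes held class II RNA as well, with a median of 12 Ovar-DRA UMIs (10th to 90th percentile 0 to 35.6) and 129 of CD74 (2 to 308).

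**Figure D3:**
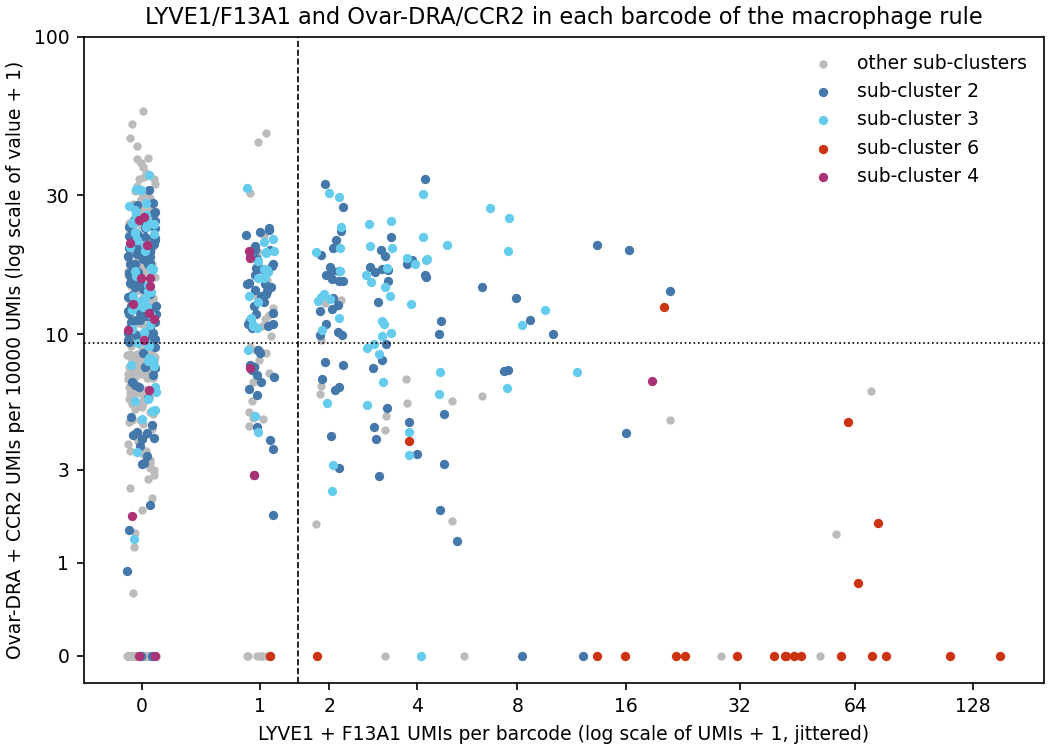
Each point is 1 of the 799 macrophage barcodes, with LYVE1 + F13A1 UMIs on the x axis and Ovar-DRA + CCR2 UMIs per 10000 UMIs on the y axis, both on log scales with 1 added. The dashed line marks the bearing limit of 2 UMIs and the dotted line the median share of 9.28. Points of sub-cluster 6 lie at the far right and mostly at 0 on the y axis, while sub-clusters 2 and 3 spread over both sides of the dashed line at similar heights.

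Low class II went with the highest LYVE1 and F13A1 counts, most of them in sub-cluster 6. CD74 stood at 10415 CPM in the 526 barcodes with 0 UMIs of LYVE1 and F13A1 and at 11702 in the 108 with 1. Among the 87 barcodes with 2 or 3 UMIs of LYVE1 and F13A1, 2 (2.30%) had 0 UMIs of Ovar-DRA and CCR2, with CD74 at 12306 CPM and Ovar-DRA at 1297. Among the 45 with 4 to 9 UMIs, 3 (6.67%) had 0, with CD74 at 10221 CPM and MRC1 at 448. Among the 33 with at least 10 UMIs, 19 (57.6%, 39.2 to 74.5) had 0, with CD74 at 3367 CPM, Ovar-DRA at 367 and HLA-DMB at 212. CD163 stood at 194 CPM with 2 or 3 UMIs and 618 with at least 10, MRC1 at 492 and 1643, and CST3 at 8044 and 1802. Of those 33, 19 were in sub-cluster 6. Depth was similar, at medians of 13127 and 14241 UMIs. Restricted to barcodes of at least 5000 UMIs, 16 of 30 (53.3%) with at least 10 LYVE1 and F13A1 UMIs had 0 UMIs of Ovar-DRA and CCR2, against 29 of 235 (12.3%) with none of either. At that depth it was 0 of 86 with 1 UMI, 0 of 81 with 2 or 3 and 1 of 43 with 4 to 9. Nearly all of the 29 lay in sub-clusters 1 and 8, whose leading genes went against the macrophage label. Most of the 16 lay in sub-cluster 6, and most of the others among them in sub-cluster 1. The limit of 10 was chosen after the data were seen.

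Depth moved with the bearing share. It was 7 of 262 (2.67%, 1.08 to 5.43) in barcodes of 1000 to under 2500 UMIs and 4 of 62 (6.45%) from 2500 to under 5000. Above that it was level, at 30.9% (21.7 to 41.2), 33.5% and 31.1% in the 3 deeper bins. The bearing group had a median of 13966 UMIs, the rich group 9104 and the group of neither 3279. The part of depth in the split was not tested beyond these values.

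**Figure D4:**
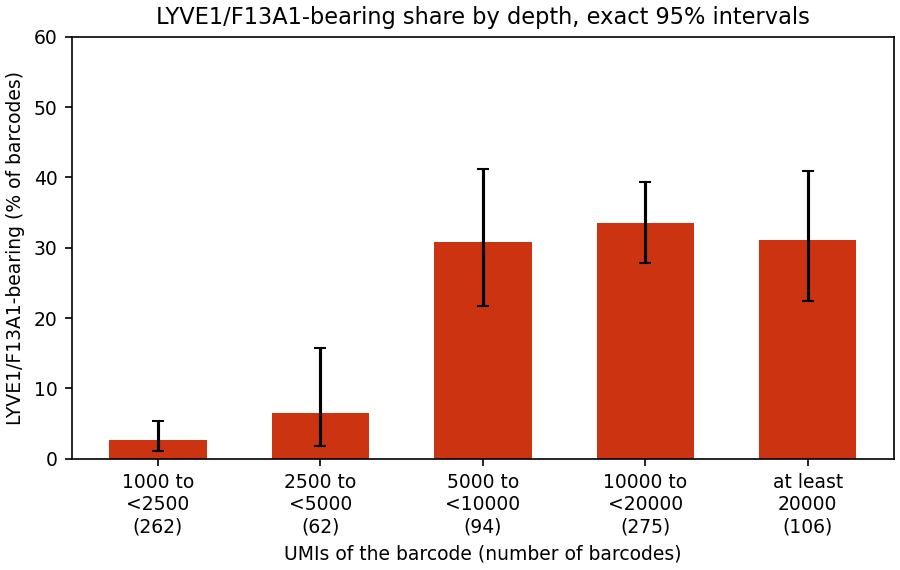
Share of macrophage barcodes that were LYVE1/F13A1-bearing (bars, % of barcodes) in 5 bins of UMIs per barcode, with exact 95% intervals as error bars and the number of barcodes in parentheses. The lowest bin stands at 2.67% and the 3 bins from 5000 UMIs upward at 30.9% to 33.5%.

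Between the groups, 270 of 12413 genes (2.18%) were at least 2-fold higher in the bearing group and 73 (0.588%) at least 2-fold lower. These counts depend on the settings: with 1 CPM added they were 642 and 297, and with a bearing limit of 4 UMIs 563 and 188. CCL24 had 367 UMIs in 28 of the 165 bearing barcodes and 0 in the rich group. Against a floor of 3 UMIs over the rich group it was at least 128-fold higher. AOC1, a diamine oxidase that degrades histamine, had 145 UMIs and 0, at least 50.4-fold higher against the same floor. The histamine receptor HRH1 stood at 92.7 CPM against 2.35, a ratio of 39.5 (17.9 to 109). PDGFC stood at 129.8 CPM against 6.26, a ratio of 20.7 (12.6 to 36.7), with 29.2% of its UMIs in 1 barcode, and endothelial barcodes held 40.6 CPM. The antioxidant enzyme GPX3 stood at 176 against 19.6, a ratio of 8.99 (6.70 to 12.3), and was found in 54 bearing barcodes. RAB3C, WWC1, EDA, MAMDC2, CACNB2, VCAN and SLC39A12 completed the 12 highest, at 57.6 to 129 CPM in the bearing group.

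The 12 lowest genes had smaller ratios and several rested on few barcodes. GLDN stood at 13.9 CPM against 70.4, but 86.1% of its UMIs in the rich group came from 1 barcode. CXCL11 stood at 16.3 against 53.2, with 48.5% from 1 barcode. PARM1 stood at 87.4 against 270.0 (3.09-fold lower, 2.65 to 3.62) and was found in 108 of the 248 rich barcodes. The transcription factors MECOM and BHLHE40 stood at 29.4 and 80.4 against 92.7 and 198, and GPM6A at 26.1 against 90.8. TAMALIN, LIMCH1, CYP2S1, ACTN1 and CALCA followed, at 11.8 to 34.7 CPM in the bearing group. CCN3 stood at 13.5 against 63.0, and turned direction when a CCR2 UMI was required for the rich group (log2 ratio 0.22 in place of -1.88).

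All 16 measured genes of the resident macrophage list had a log2 ratio above 0 and 9 were at least 2-fold higher in the bearing group, with a median of 1.23 against 0.03 over all 12413 genes. LYVE1 and F13A1 define the split, which fixed the direction of their log2 ratios of 5.20 and 6.86. Both count in the 16, the 9 and the median, so these values overstate the difference of the other genes. CD163 stood at 285 CPM against 86.1, a ratio of 3.31 (2.84 to 3.87), the scavenger receptor STAB1 at 167 against 28.2, and the transcription factor MAF at 212 against 44.6. DAB2 stood at 338 against 93.9, MRC1 at 718 against 337, FOLR2 at 142 against 51.3 and the complement receptor VSIG4 at 35.5 against 8.22. STAB1 was also found in endothelial barcodes, at 104 CPM. CD163 was found in 125 of 165 bearing barcodes and 89 of 248 rich barcodes. In thinned barcodes these shares were 21.2% and 4.84%, against 0.18% in the endothelial class.

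The MHC class II list had 0 of 12 genes past 2-fold in either direction, with 11 of the 12 log2 ratios below 0 and a median of -0.40. Ovar-DRA, which chose the rich group, is among the 11 and has the lowest ratio, at -0.68. CD74 stood at 9833 CPM in the bearing and 13718 in the rich group, and HLA-DMB at 538 and 793. In the cathepsin and cystatin list, 1 gene was past 2-fold in each direction: CST3 was lower at 5937 against 12311, and the lysosomal protease LGMN higher at 65.3 against 23.9. Without sub-cluster 6 that list had 0 in either direction. The inflammatory cytokine list had 0 of 15 genes past 2-fold (median 0.22), with CXCL8 at 4090 against 3455 and IL1B at 510.0 against 372. The interferon gamma list had 0 higher and 1 lower of 12 (median -0.37), and the type I interferon list 0 of 14 (median -0.10). The endotoxin co-receptor CD14 stood at 378 against 116. The monocyte and dendritic list had 3 higher and 1 lower of 13 (median -0.03). FCN1, a monocyte lectin on that list, stood at 44.9 CPM against 1.96, in 15 of the 165 bearing barcodes, and was singled out after its value was seen. At the finer resolution of clustering, 1 sub-cluster of 51 barcodes, led by FCN1, SERPINB2, S100A12, THBS1 and S100A8, held 166 of the 176 FCN1 UMIs. Of the 51, 25 were bearing (49.0%, 34.8 to 63.4), and the neutrophil list summed to 202 CPM there.

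Without sub-cluster 6, most ratios of the resident list were smaller, while those of GAS6 (log2 0.18 to 0.31) and PLTP (0.14 to 0.19) were larger. The resident macrophage list then had 7 of 16 genes at least 2-fold higher (median log2 ratio 0.57) and the MHC class II list again 0 of 12 (median -0.32). Genes that define the split count here too. LYVE1 and F13A1, at log2 ratios of 3.35 and 6.07, are among the 7, and Ovar-DRA is among the 12. FOLR2 stood at 76.6 CPM against 51.3 and MRC1 at 513 against 337, both under 2-fold, while CD163 stood at 203 against 86.1 and MAF at 102 against 44.6. All 12 highest genes remained at least 2-fold higher, with a median log2 ratio of 1.86, and 11 of the 12 lowest genes at least 2-fold lower. CCL24 stood at 35.6 CPM, in place of 149.9. The monocyte and dendritic list then had 2 of 13 genes higher and 1 lower (median 0.04). VCAN stood at 65.7 CPM against 2.74 and FCN1 at 50.2 against 1.96, whereas FLT3 was lower at 10.9 against 32.5. The log2 ratios of VCAN (3.04 to 3.19) and FCN1 (2.84 to 2.99) were larger than with sub-cluster 6. Sub-cluster 6 was left out after the data were seen.

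**Figure D5:**
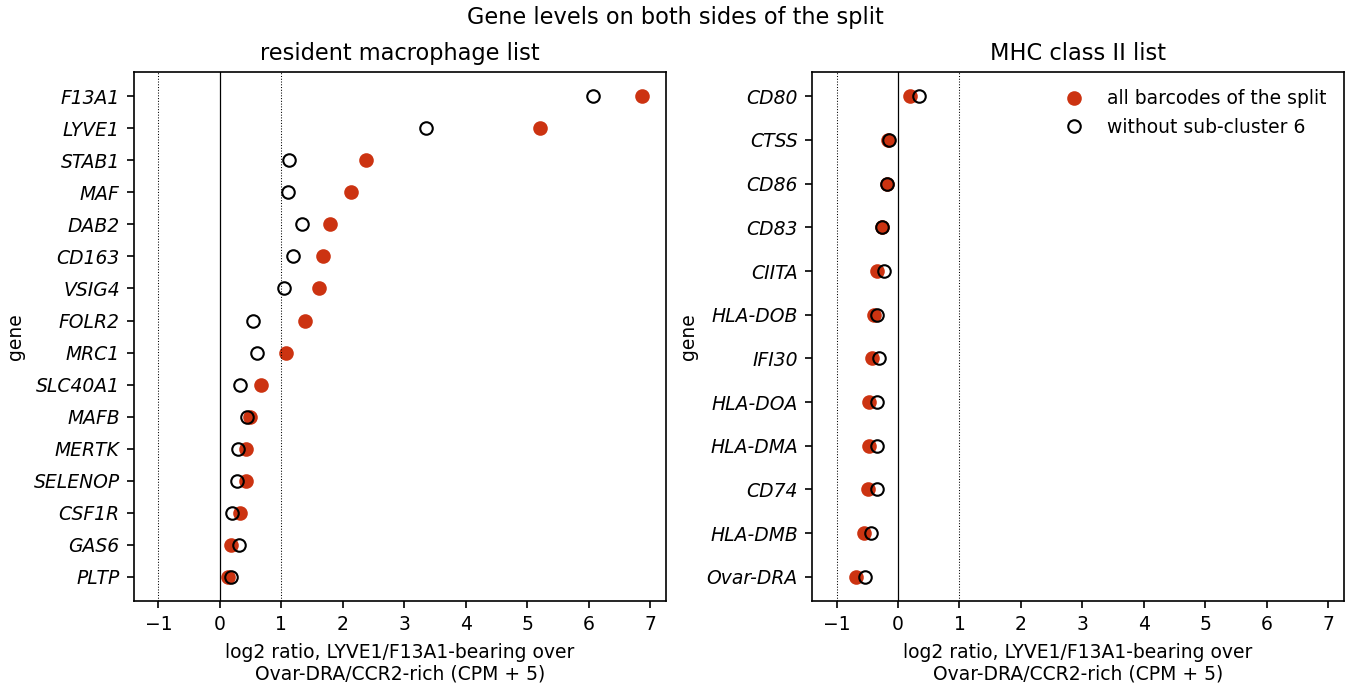
Log2 ratio of CPM + 5 in the LYVE1/F13A1-bearing over the Ovar-DRA/CCR2-rich barcodes (x axis) for the genes of the resident macrophage list (left) and the MHC class II list (right), with all barcodes (filled) and without sub-cluster 6 (open). Dotted lines mark 2-fold. Resident genes lie to the right of 0 and all but GAS6 and PLTP move left without sub-cluster 6, and most class II genes lie between 0 and 2-fold lower. LYVE1, F13A1 and Ovar-DRA are genes that define the split.

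The summed markers of other cell types are set beside the split here. The fibroblast list summed to 842 CPM in the bearing and 528 in the rich group, with 3 of 7 genes at least 2-fold higher in the former, and at least 3 UMIs of the 7 genes were found in 52 bearing (31.5%) and 73 rich barcodes (29.4%). The endothelial list summed to 305 and 230 CPM, the T or NK list to 165 and 149, and the monocyte list to 680 and 291. The monocyte list is not specific, since it shares CD14 with the further macrophage markers. It summed to 1003 CPM in fibroblast and 1384 in smooth muscle barcodes. For the neutrophil list the sums were 58.0 and 18.0, with S100A12 found in 5 bearing barcodes. The dendritic list summed to 106 and 168 CPM, with FLT3 at least 2-fold lower in the bearing group. The B or plasma list summed to 42.9 and 9.78, with 3 of 4 genes at least 2-fold higher, and the 30 PAX5 UMIs of the bearing group came from 1 barcode of sub-cluster 6. Sub-cluster 4, with 12 rich and 1 bearing among its 21 barcodes, has TAMALIN and CCN3 among its leading genes, and both are among the 12 lowest. Of the 248 rich barcodes, 70 were in shallow sub-cluster 0, whose leading genes went against the macrophage label, and 32 in shallow sub-cluster 7. The bearing group had 7 and 2 of its 165 barcodes there. The part of these markers and sub-clusters in the split was not tested.

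Set beside the graft, where the same rule took 349 of 924 barcodes, the native macrophages differed in several lists, among them class II, lipid handling and cathepsin genes. Each tissue had 1 library, and the graft barcodes were deeper, with a median of 30422 UMIs against 9165, so tissue, library and depth cannot be told apart. Of 15168 genes, 589 (3.88%) were at least 2-fold higher in the native macrophages and 634 (4.18%) lower, with C1QA similar at 4607 and 4528 CPM. The MHC class II list had 7 of 12 genes at least 2-fold higher in the artery and 0 lower (median log2 ratio 1.12), with Ovar-DRA at 1132 against 185 and CD74 at 10472 against 3891. CCR2 stood at 47.5 against 5.94. The lipid handling list had 0 of 17 higher and 15 lower (median -2.39), with SPP1 at 0.74 CPM against 3591. The cathepsin and cystatin list had 1 of 14 higher and 8 lower (median -1.44). The resident macrophage list was mixed, with 2 of 17 higher and 4 lower (median -0.82): LYVE1 stood at 54.7 against 11.9, FOLR2 at 75.9 against 360.2 and MRC1 at 415 against 511. The bearing limit was met by 131 of the 349 graft barcodes (37.5%, 32.4 to 42.8) against 20.7% in the artery. This limit is a count of UMIs and was not scaled to depth. F13A1 stood at 89.96 CPM in the graft against 185 in the artery. The fibroblast list summed to 2419 CPM in the native and 1257 in the graft barcodes. The neutrophil list summed to 31.2 and 755, with S100A8 and S100A12 lower in the artery and CSF3R higher, and the smooth muscle list to 38.6 and 156, with 3 of 5 genes lower. Immediate early and heat shock genes gave 5 of 18 higher and 0 lower (median 0.91). The part of these lists in the values was not tested.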

How the data were processed

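The deposited files hold UMI counts per gene and barcode for 2 libraries, which per the file headers come from Cell Ranger, version 7.2.0. Seurat (5.0.0), R (4.3.3) and bcl2fastq (2.20.0.422) appear in the submitters' processing notes with no stated use. The genome build used for alignment is not given in the sources used here. Of 21890 genes, 6435 had no symbol, and they held 22.4% of the macrophages' UMIs. They count toward totals and are not named.

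Barcodes were filtered at 1000 UMIs and 20% mitochondrial UMIs, and no doublet caller was run. The members, the split and the gene lists were chosen with earlier results of these data known, and the lists are not independent evidence. UMIs were summed per group and given as CPM. Log2 ratios are on CPM + 5, over genes with at least 10 UMIs, and a gene at least 2-fold apart was counted. Intervals are exact at 95%: Poisson for a level, conditional binomial for a ratio and Clopper-Pearson for a share. A floor of 3 UMIs over the group replaced a sum of 0. UMIs are molecules captured in 1 library, so intervals cover counting error only. Shares of barcodes with a gene were also taken after thinning each barcode to 1000 UMIs (seed 1), which left out 0 barcodes within the limits. Endothelial, smooth muscle, T and fibroblast barcodes were other native barcodes with at least 3 UMIs of their list and at least 2 times each other list. Sub-clusters came from Leiden clustering in scanpy 1.11.5 with 1000 variable genes, 20 components, 15 neighbours and resolution 0.5.

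Named genes were the 12 highest and 12 lowest ratios of a comparison with at least 50 CPM and 30 UMIs in the higher group, up to 6 of the highest level per list, all measured genes of the resident, class II and complement lists, and up to 6 leading genes per sub-cluster. Genes named outside it are said to be so or are markers of the rule and of other cell types. With 1 library per tissue there was no test and no p-value. On simulated counts of 16566 genes, 50 of 50 genes changed 4-fold upward and 49 of 50 changed 4-fold downward came within 0.5 log2 of the truth for macrophages against other barcodes. For the split, with 12367 genes, these were 50 and 46 of 50. Only genes of at least 50 CPM in the pooled sums were changed, and counts were drawn with counting error alone. The simulation therefore says nothing on spread between barcodes or on genes held by few barcodes. Other UMI, mitochondrial, marker, pseudocount and split limits, equal weights per barcode and thinned counts were tried. Python 3.11.15, numpy 2.4.6, scipy 1.17.1 and pandas 2.3.3 were used.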

Additional observations from a re-analysis of the deposited data

How the results depend on the processing

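The main values were 11.7% of native barcodes taken as macrophages, 20.7% and 31.0% of them bearing and rich, 1340 and 1737 genes higher and lower than in other barcodes, and 270 and 73 between the groups. A minimum of 500 UMIs gave 13.6% bearing and 35.5% rich. At 5000 UMIs the shares were 17.2% taken, 32.4% bearing and 24.8% rich, with 492 genes higher in the bearing group. The share taken was 10.4% with 5 marker UMIs, 9.82% with a 4 times margin and 9.80% without the deepest 5% of barcodes, which left 331 genes lower in the bearing group. Equal weights gave 364 lower, and thinned counts 534 higher and 452 lower. Adding 1 CPM gave 2785 genes lower than in other barcodes, and 642 and 297 between the groups. A bearing limit of 1 UMI gave 34.2% and 41 genes lower. A limit of 4 UMIs gave 9.76%, 563 higher and 188 lower. Both genes required gave 4.51%, 1221 and 888. A CCR2 UMI required for the rich group gave 12.5%, and CCN3 turned direction, with a log2 ratio of 0.22 in place of -1.88 on 33 and 17 UMIs.

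Settings chosen after seeing the data were these. Without sub-clusters 1 and 8 the share taken was 10.6%, and without 0, 1 and 8 it was 7.25%, with 30.4% bearing and 26.9% rich. Without 0, 1, 4 and 8 these were 6.95%, 31.5% and 26.4%. A fibroblast limit of 2 times gave 10.3% taken, and lists without PECAM1 and CD2 gave 13.4%. A bearing limit of 10 UMIs gave 4.13%, 1141 higher and 916 lower. The causes were not tested. Across all settings, 83 of these summary values stayed near the main ones and 37 moved. Of the list medians 529 stayed and 26 moved, and of the named genes' ratios 546 stayed, 341 moved and 1 turned direction.

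No paired analysis was possible because each tissue has 1 library, and leaving out a replicate was not possible either.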
